A study of Bos taurus with 36 samples.

Results

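Mitochondrial ribosomal protein genes (MRP genes) are nuclear genes for the proteins of the ribosome that works inside mitochondria. They were taken as every row of the gene count table whose bovine RefSeq protein-coding symbol began with MRPL, the large subunit, or MRPS, the small subunit, followed by a digit. This gave 78 of 35092 rows, 49 named for the large subunit and 29 for the small subunit. Levels were followed in the heart, gonads and liver of male bovine fetuses collected at 42 days of gestation and in the blood of the heifers that carried them. All heifers had received embryos of the same age, 7 days, either in step with their own cycle, on its Day 7 (ET_D7), or 2 days later, on its Day 9 (ET_D9). Fetus numbers follow weight, with fetus 1 the lightest of the 10 at 1.253 g and fetus 10 the heaviest at 1.69 g. They gave 9 heart, 9 gonad, 8 liver and 10 maternal blood libraries. Fetuses 1 to 5 were all ET_D7, at up to 1.37 g, and fetuses 6 to 10 were all ET_D9, from 1.396 g upwards, so that weight and transfer group varied together. By the labels, each library within a tissue came from another pregnancy.

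Mitochondria hold a small genome that encodes core subunits of the respiratory chain, some transfer RNAs and the ribosomal RNAs of their own ribosome. Every protein of that ribosome is encoded in the nucleus, made in the cytosol and imported, so that a working mitochondrial ribosome needs the products of both genomes. The small subunit binds and reads the messenger RNA, and the large subunit joins the amino acids and passes the new chain towards the inner membrane. Heart muscle depends heavily on respiration, and the fetal liver is a site of both metabolism and red blood cell formation.

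The libraries held 18231089 to 40812354 counts. Of the 78 MRP genes, 76 had counts in every one of the 36 libraries. MRPL16 and MRPS18B were listed at 0 in all 36, and in the RefSeq annotation MRPL16 overlaps STX3 while MRPS18B overlaps no gene. Another gene overlapped 23 of the 78, which leaves the assignment of their shared reads uncertain. Among those named below this concerned MRPL23, MRPL40, MRPL45, MRPL49, MRPL55, MRPS6, MRPS7, MRPS18C, MRPS24, MRPS27 and MRPS31. Because these are bulk tissues, fewer cells of a type and less RNA per cell cannot be told apart.

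Before the results, 2 pairs of libraries must be set apart. All 145 pairs of libraries of the same tissue were compared gene by gene with a chi-square statistic, for which counting noise alone gives a median of 0.455. In the gonads of fetuses 6 and 8 the median was 0.00033 over 15648 genes, and in the livers of fetuses 1 and 2 it was 0.108 over 14470 genes. The next closest pair, 2 hearts, had 1.47. Of the 76 MRP genes with counts, 75 in the gonad pair and 76 in the liver pair lay within the limit that holds 95% of values under counting noise (3.84), as did 93.3% of all genes in each pair. Each pair thus differed by less than the sampling noise in most genes although its labels name different fetuses, and which fetus the values belong to is not known. Each pair was counted as 1 sample, by its mean, in every mean ± SD and correlation over libraries below. The spread of single MRP genes and the correlations between them are given both ways. The fits hold every library as designed, which understates the spread in gonads and liver, and are given again with each pair counted once. Ranges and medians of CPM are over all libraries.

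Defining markers of the heart, liver and blood were high under those labels. In the liver, however, 333 genes jumped between at most 2 counts in some libraries and at least 300 in all others, none of them an MRP gene, and the muscle gene MYL2 reached 1751 CPM in 1 liver library against a median of 0.0483 CPM over the livers. The gonad libraries also held all 10 nephron and mesonephros markers at a median of 1 CPM (a gene's counts scaled to a fixed library size) or more, summed to 607 to 765 CPM, against 8.31 to 18.8 CPM in the heart. Among markers of the developing testis, SOX9, AMH and DDX4 had medians of 4.84, 2.698 and 0.157 CPM there and DAZL of 0, while KIT (45.0 CPM, against 2.79 in the heart) and CYP26B1 (19.7 against 3.88) were higher and PTGDS was at 44.5 CPM against 44.7. Summed over its 8 genes, the Sertoli cell list was at 66.4 to 113.8 CPM in the gonads and 52.9 to 71.9 CPM in the heart, and the germ cell list at 35.9 to 61.7 and 6.08 to 14.2 CPM. The gonad libraries are therefore described by their label, and the part of adjacent kidney tissue in their values was not tested. In the maternal blood, 8 skeletal muscle genes, chosen after their values were seen, summed to 6775 CPM with fetus 2 and 2533 CPM with fetus 5, against 2.60 to 43.1 CPM in the other 8 libraries. These 2 blood libraries also had the lowest and the highest mitochondrially encoded share of the blood, and blood results are given with and without them.

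Summed over the 78 genes, MRP transcripts took a similar share of the nuclear counts in heart and liver, a smaller one in the gonads and the smallest in the blood, but as a percent of all counts the gonads had the highest mean of the organs. The sum was 0.412% to 0.466% of nuclear counts in the heart, with a median of 0.451% and a mean of 0.442% ± 0.0204 (SD, n = 9). It was 0.346% to 0.408% in the gonads, with a median of 0.359% and a mean of 0.365% ± 0.0211 (SD, n = 8). The liver spanned 0.374% to 0.518%, with a median of 0.418% and a mean of 0.427% ± 0.0478 (SD, n = 7). Every heart library was above every gonad library, while the liver range overlapped those of both other organs. Of all counts, mitochondrially encoded ones included, the mean was 0.284% ± 0.0462 in heart, 0.349% ± 0.0163 in gonads and 0.316% ± 0.0649 in liver (SD, n = 9, 8 and 7), and the ranges overlapped. In the maternal blood the sum was 0.150% to 0.193%, with a median of 0.179% and a mean of 0.177% ± 0.0122 (SD, n = 10), below every organ library. The blood mean was 0.178% without the libraries of fetuses 2 and 5. Blood libraries were made with another kit (SMARTer Stranded against Truseq-stranded mRNA for the organs), so that tissue and kit cannot be told apart there.

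**Figure D1:**
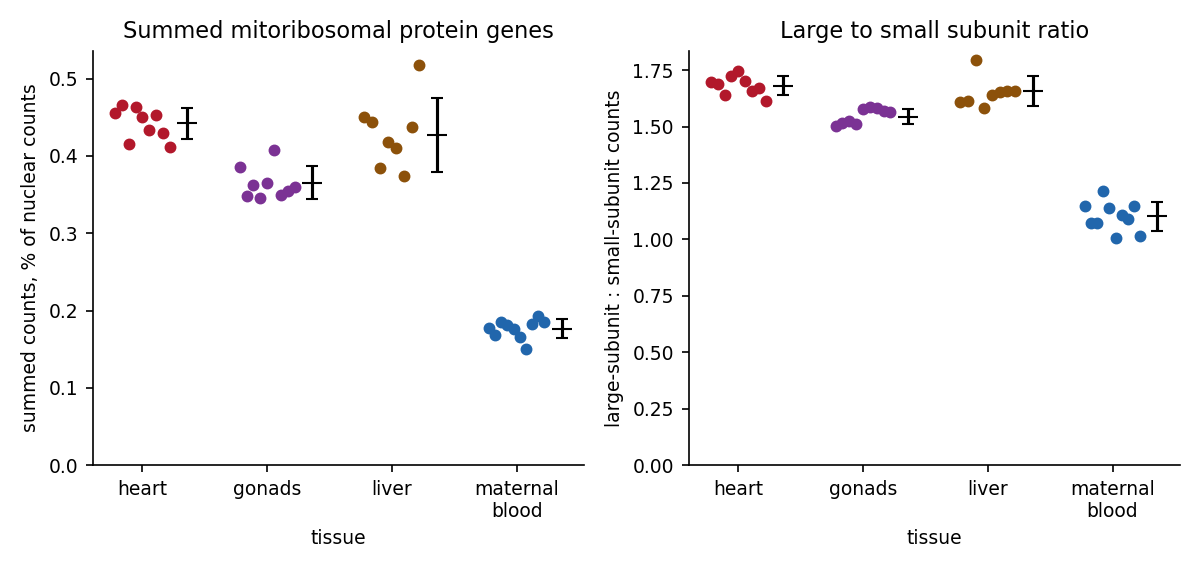
Left, counts summed over the 78 MRP genes as a percent of all nuclear counts, and right, the ratio of large-subunit to small-subunit counts by symbol. There is 1 point per library in order of fetus number. The mean ± SD stands beside each tissue, with near-identical libraries counted once there. The heart points lie above all gonad points on the left, and the blood points lie lowest in both panels.

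The subunits did not hold the same proportion in all tissues. Split by symbol, large-subunit genes had 1.61 to 1.75 times the counts of small-subunit genes in heart and 1.503 to 1.59 times in gonads. The range was 1.58 to 1.80 times in liver and 1.01 to 1.21 times in maternal blood, where tissue and library kit cannot be told apart. The split places MRPS30, whose protein sits in the large subunit, and MRPS36 with the small subunit. In blood MRPS15, named after its values were seen, had the highest maximum of the MRP genes, at 2279 to 7602 counts. The ratio without it was not computed. In the gonads the ratio was 1.503 to 1.52 in the 4 ET_D7 libraries and 1.57 to 1.59 in the 5 ET_D9 libraries, with no overlap, and fetuses 6 and 8 are 1 of 4 ET_D9 samples when counted once. Pearson's r of this ratio with fetal weight was 0.80 in the gonads (rho 0.71, n = 8, with the pair at its mean weight), and 0.94 without the 2 heaviest fetuses. The correlation ran the other way in the heart, at -0.60 (rho -0.37, n = 9; -0.28 without the 2 heaviest). These correlations describe libraries that share fetuses between organs and were not tested.

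Between fetuses of one tissue, MRP genes varied slightly less than the typical gene. The median SD of log2(CPM + 1) over the 76 counted genes was 0.22 in heart, 0.22 in gonads, 0.33 in liver and 0.20 in blood, where the typical gene of each tissue had 0.28, 0.25, 0.38 and 0.24. It was 0.24 in gonads and 0.35 in liver with near-identical libraries counted once, against 0.26 and 0.38. Over pairs of MRP genes, Pearson's r across the fetuses of a tissue took both signs. It was above 0 for 55.0% of their 2850 pairs in heart, 52.4% in gonads, 79.4% in liver and 74.6% in blood. The median was 0.15 in heart, 0.09 in gonads, 0.39 in liver and 0.27 in blood. With near-identical libraries counted once it was 0.09 in gonads and 0.41 in liver. A median near 0 can hold strong pairs of opposite sign, and the strength of single pairs was not summarised.

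Next, the 3 organs were compared gene by gene in 1 fit of their 26 libraries with edgeR's quasi-likelihood test, with Benjamini-Hochberg adjustment over 25095 genes. CPM values of this comparison are scaled with TMM over the 26 libraries. A gene was called higher in an organ when it was above each of the other two organs at an adjusted p under 0.05. Among the 76 MRP genes, the heart led in 21, the gonads led in 4 and the liver led in 21, where 11.1%, 14.9% and 23.1% of all genes tested were called. In the opposite direction, 38 had the gonads below both other organs, 14 had the liver below both and 0 the heart (13.6%, 19.6% and 8.26% of all genes). At an unadjusted p under 0.05 in both contrasts 0 MRP genes had the heart below both other organs, and DESeq2 called 0. With near-identical libraries counted once, the heart led in 20, the gonads in 4 and the liver in 20, and 34 were lowest in the gonads and 13 in the liver. The 14 lowest in the liver became 8 with DESeq2 size factors, 10 with DESeq2's own test and 10 without fetus 3. In the remaining 10, among them MRPL15, MRPL18, MRPL20 and MRPS7, no organ stood above or below both others.

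By pairs of organs, 54 MRP genes were higher in heart than in gonads and 4 were lower (23.5% and 23.1% of all genes), with a median log2 difference of 0.67 against -0.08 over all genes. Between gonads and liver, 18 were higher in the gonads and 41 in the liver (30.8% and 33.6% of all genes), with a median of -0.38 against 0.00. Heart and liver were closer, with 29 higher in the heart and 22 in the liver (27.9% and 30.7% of all genes). Their median difference was 0.13 with TMM and -0.03 with DESeq2 size factors, which moved the median over all genes from 0.00 to -0.13, so that it takes no direction. By ranges, every heart library lay above every gonad library for 33 MRP genes (11.6% of all genes) and the reverse held for 1 (11.6%). Every liver library lay above every gonad library for 24 (14.7%), and the reverse held for 5 (16.3%). Heart libraries lay above all liver libraries for 9 (13.5%) and below all of them for 8 (12.4%).

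**Figure D2:**
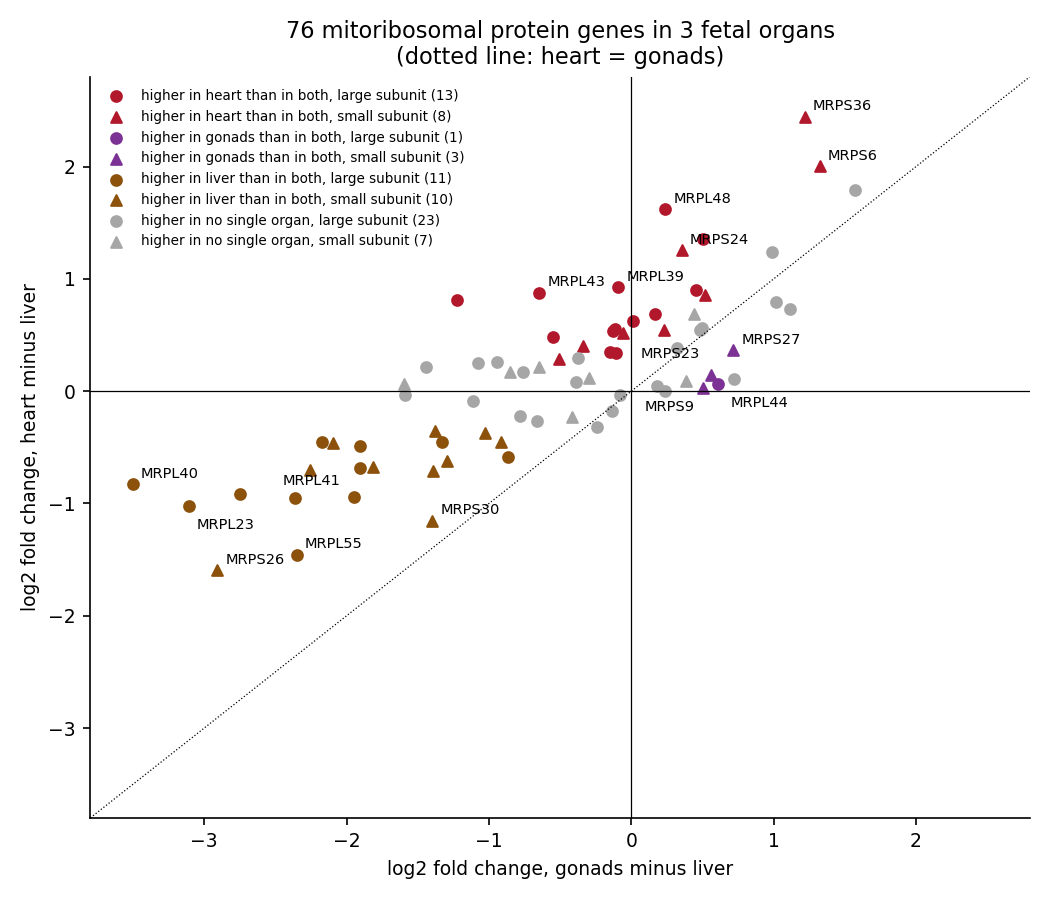
Log2 fold change of the 76 counted MRP genes between gonads and liver (horizontal) and heart and liver (vertical). Circles mark genes named for the large subunit and triangles genes named for the small subunit. Colours give the organ in which a gene was higher than in both others. Points above the dotted line were higher in heart than in gonads, which holds for 64 of the 76, and the 21 liver genes fill the lower left.

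Among the large-subunit genes higher in the heart, MRPL48 ranged from 16.1 to 32.4 CPM there (median 21.8), from 7.52 to 11.7 CPM in the gonads (8.67) and from 4.09 to 13.9 CPM in the liver (7.13). Every heart library was above all others. The log2 fold change was 1.39 against the gonads (SE 0.19, adjusted p = 4.39e-07) and 1.62 against the liver (SE 0.20, adjusted p = 4.26e-08). MRPL39 ranged from 60.4 to 97.7 CPM in the heart (median 81.3), from 25.2 to 48.8 CPM in the gonads (38.8) and from 30.8 to 54.8 CPM in the liver (39.4), again without overlap. It was 1.02 higher than in the gonads (SE 0.13, adjusted p = 9.14e-08) and 0.93 higher than in the liver (SE 0.13, adjusted p = 5.61e-07) on the log2 scale. MRPL43, with medians of 23.6, 8.51 and 13.3 CPM in heart, gonads and liver, separated from the gonads in every library but overlapped the liver.

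Among the genes named for the small subunit, MRPS24 ranged from 11.7 to 20.7 CPM in the heart (median 14.9), above every gonad library (6.56 to 10.8) and every liver library (5.22 to 9.87). Its smaller log2 fold change was 0.90 (SE 0.15, adjusted p = 8.39e-06), against the gonads. MRPS36, whose protein is also known as a part of the 2-oxoglutarate dehydrogenase complex, was spread most widely, from 2.94 to 40.1 CPM in the heart (median 10.2), from 3.22 to 6.89 CPM in the gonads and from 0.253 to 4.95 CPM in the liver. The ranges of heart and gonads overlapped. Against the gonads its log2 fold change was 1.23 (SE 0.43, adjusted p = 0.0214), which did not hold with fetus as a replicate block (1.02, adjusted p = 0.0872) or without fetus 10 (0.80, adjusted p = 0.120).

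The 21 liver genes differed by more. MRPS26 ranged from 186 to 279 CPM in the liver (median 223), from 45.7 to 105 CPM in the heart (81.5) and from 23.2 to 51.4 CPM in the gonads (29.2), so that all liver libraries were above all others. Its log2 fold change against the liver was -1.59 in the heart (SE 0.16, adjusted p = 2.03e-09) and -2.91 in the gonads (SE 0.17, adjusted p = 1.29e-14). MRPL55 followed with 164 to 301 CPM in the liver (median 189), 51.7 to 83.4 CPM in the heart and 31.8 to 53.3 CPM in the gonads. MRPL23, named after a bacterial protein at the exit of the ribosomal tunnel, reached 204 to 395 CPM in the liver (median 252), with 85.0 to 160 CPM in the heart and 20.7 to 54.7 CPM in the gonads. In MRPL41, the liver range of 52.4 to 87.0 CPM also stood clear of the heart (28.0 to 38.1) and the gonads (9.37 to 23.5). MRPS30, which carries a small-subunit symbol although its protein sits in the large subunit, was at 51.0 to 104 CPM in the liver, 21.9 to 36.1 CPM in the heart and 20.4 to 28.2 CPM in the gonads. For these 5 genes no liver library overlapped with either other organ.

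In the 4 genes higher in the gonads, the smaller log2 fold change was 0.54 at most. MRPL44, whose protein has the fold of an RNA-cutting enzyme, ranged from 14.1 to 22.6 CPM in the gonads (median 18.6), from 8.29 to 17.1 CPM in the heart and from 7.71 to 17.1 CPM in the liver. The ranges overlapped, and the smaller log2 fold change was 0.54 (SE 0.16, adjusted p = 0.00501), against the heart. MRPS9 was at 33.3 to 57.2 CPM in the gonads, above all heart libraries (24.1 to 31.5), but it overlapped the liver (12.3 to 34.0). MRPS23 (median 56.0 CPM in the gonads, 39.3 in the heart) and MRPS27 (35.2 and 28.6), a protein of the pentatricopeptide repeat family, lost the call against the heart with fetus as a replicate block (adjusted p = 0.0573 and 0.0514), which left 2 genes in this class.

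Among the genes that were lowest in the gonads, MRPL40 showed the widest gap. It ranged from 10.9 to 27.1 CPM in the gonads (median 15.5), from 45.7 to 184 CPM in the heart (112) and from 144 to 243 CPM in the liver (191). The gonads lay clear of both other organs, which overlapped each other. The log2 fold change from liver to gonads was -3.50 (SE 0.25, adjusted p = 9.11e-13). MRPS6 was lower in the liver, at 21.6 to 44.1 CPM, than in the gonads (63.0 to 84.9) and the heart (96.3 to 145), and no range touched another. MRPL10 was likewise lower in the liver, at 4.26 to 13.3 CPM against 20.6 to 32.7 in the heart and 16.7 to 31.7 in the gonads. MRPL40, MRPS6 and MRPL10 were named after their values were seen.

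The MRPS18 genes are 3 copies that trace back to 1 ancestral gene and sit in different places of the ribosome. MRPS18A was higher in the liver, at 32.5 to 65.1 CPM (median 43.1), than in the heart (29.3 to 42.7, median 34.8; log2 difference -0.45, SE 0.13, adjusted p = 0.00435) and the gonads (20.6 to 34.4, median 24.7). MRPS18C was higher in the heart, at 24.3 to 41.3 CPM (median 32.3), than in the gonads (19.4 to 30.5, median 27.6; log2 difference 0.32, SE 0.13, adjusted p = 0.0431) and the liver (16.8 to 29.5, median 22.4). For both genes the ranges of the organs overlapped, and MRPS18B had no counts.

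The other genes of mitochondrial protein synthesis did not share one organ pattern. Of the 6 other proteins of the ribosome, 3 were higher in the liver, of which GADD45GIP1 was at a median of 309 CPM against 48.6 in the heart and 21.6 in the gonads. Of 15 translation factors, 2 had their highest level in the heart, 2 in gonads and 2 in liver. TUFM, the elongation factor that brings transfer RNA to the ribosome, was at a median of 148 CPM in heart, 56.8 in gonads and 93.6 in liver. Of 24 ribosome assembly and RNA maturation factors tested, the heart led in 3, the gonads led in 6 and the liver led in 5. METTL17, an assembly factor of the small subunit, was at a median of 42.3 CPM in the gonads against 9.56 and 7.03 in heart and liver, and TFB1M, which methylates the small-subunit RNA, was at 8.31 against 2.28 and 1.81.

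For mitochondrial transcription and DNA maintenance, the gonads led in 5 of 13 genes and the liver led in 4. TFAM, which packs mitochondrial DNA and starts its transcription, had its highest median in the gonads, at 61.2 CPM, against 28.0 in the heart and 16.9 in the liver. Of 16 mitochondrial aminoacyl-tRNA synthetases 8 were in no class, 2 were higher in the gonads and 1 in the liver. Of 9 regulators of mitochondrial biogenesis, the heart led in 2, the gonads led in 3 and the liver led in 0, and 3 were lowest in the heart. The 2 higher in the heart were PPARGC1A, a coactivator of respiratory genes, and ESRRA, a nuclear receptor. Their medians were 265 and 46.4 CPM there against 6.31 and 9.21 in the gonads. Nuclear subunits of complex I were set beside the MRP genes as another class of mitochondrial proteins: 28 of 37 were higher in the heart and 1 in the liver, where the MRP genes had 21 and 21 of 76. Of 71 cytosolic ribosomal protein genes, the heart led in 13 and the liver in 19, and 39 were lowest in the gonads. Whether these classes differ from the MRP genes was not tested.

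Fetal weight was then followed within each tissue, where CPM values are scaled with TMM within that tissue. A natural cubic spline of weight, tested with edgeR's quasi-likelihood test, called 0 MRP genes in every tissue, where it called 0.00%, 0.00%, 1.81% and 0.129% of all genes in heart, gonads, liver and blood. At an unadjusted p under 0.05 it passed 7 in heart, 6 in gonads, 17 in liver and 2 in blood, where 7.99%, 12.6%, 17.9% and 9.77% of all genes did. With near-identical libraries counted once the gonad spline called 1 MRP gene, MRPL15 (adjusted p = 0.0081), and 5.28% of all genes. MRPL15 was at 4.29 CPM in the gonads of fetus 1 and 27.8 to 56.8 CPM in the others. With a linear term, 6 of 76 rose with weight in the heart and 0 fell (5.22% and 1.54% of all genes), while 0 passed in the gonads, liver and blood (0.00%, 2.23% and 0.00%). At an unadjusted p under 0.05 the linear term passed 22 MRP genes in the heart (29.1% of all genes) and 0, 6 and 8 in the other 3 tissues (5.62%, 17.2% and 9.69%), where DESeq2 called 0, 2 and 0. Of the other genes of mitochondrial protein synthesis in the heart, 1 of 6 further ribosomal proteins, 5 of 15 translation factors and 1 of 24 assembly factors rose with weight, and 1 translation factor fell.

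The 6 heart genes were MRPS36, MRPL50, MRPS23, MRPS28, MRPL1 and MRPL45. From fetus 1 to fetus 10 in order of weight, without fetus 7, MRPS36 was at 3.52, 2.33, 7.82, 3.06, 4.78, 9.07, 15.1, 11.6 and 30.4 CPM. All 4 ET_D9 hearts were above all 5 ET_D7 hearts, and fetus 10 stood far above the next value. The slope was 0.65 on the log2 scale per 0.1 g (SE 0.11, adjusted p = 0.0395).

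MRPS28 was at 2.85, 1.57, 6.58, 1.83, 3.37, 6.01, 6.99, 6.82 and 24.5 CPM in the same order, with a slope of 0.61 (SE 0.13, adjusted p = 0.0402). Here the groups overlapped, and 8 of 9 hearts lay under 7 CPM. MRPL1, the counterpart of a bacterial protein of the stalk through which transfer RNA leaves, was at 6.64, 4.84, 11.3, 7.32, 7.38, 12.1, 15.8, 11.1 and 26.2 CPM (slope 0.38, SE 0.08, adjusted p = 0.0402). Fetus 3, the ET_D7 heart with the lowest mitochondrially encoded share of its group, was the highest of the light fetuses in all 6 genes.

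MRPL50 rose from 10.7 CPM in fetus 1 to 27.0 CPM in fetus 10 (range 7.93 to 27.0, median 14.6; slope 0.31, SE 0.05, adjusted p = 0.0395). MRPS23 rose from 22.9 to 45.5 CPM (range 22.4 to 45.5, median 30.2; slope 0.22, SE 0.05, adjusted p = 0.0395), and all ET_D9 hearts were above all ET_D7 hearts. MRPL45, which helps to hold the ribosome at the inner membrane, rose from 12.1 to 40.8 CPM (range 8.78 to 40.8, median 17.5; slope 0.33, SE 0.07, adjusted p = 0.0416). The adjusted p-values of all 6 lay just under 0.05.

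**Figure D3:**
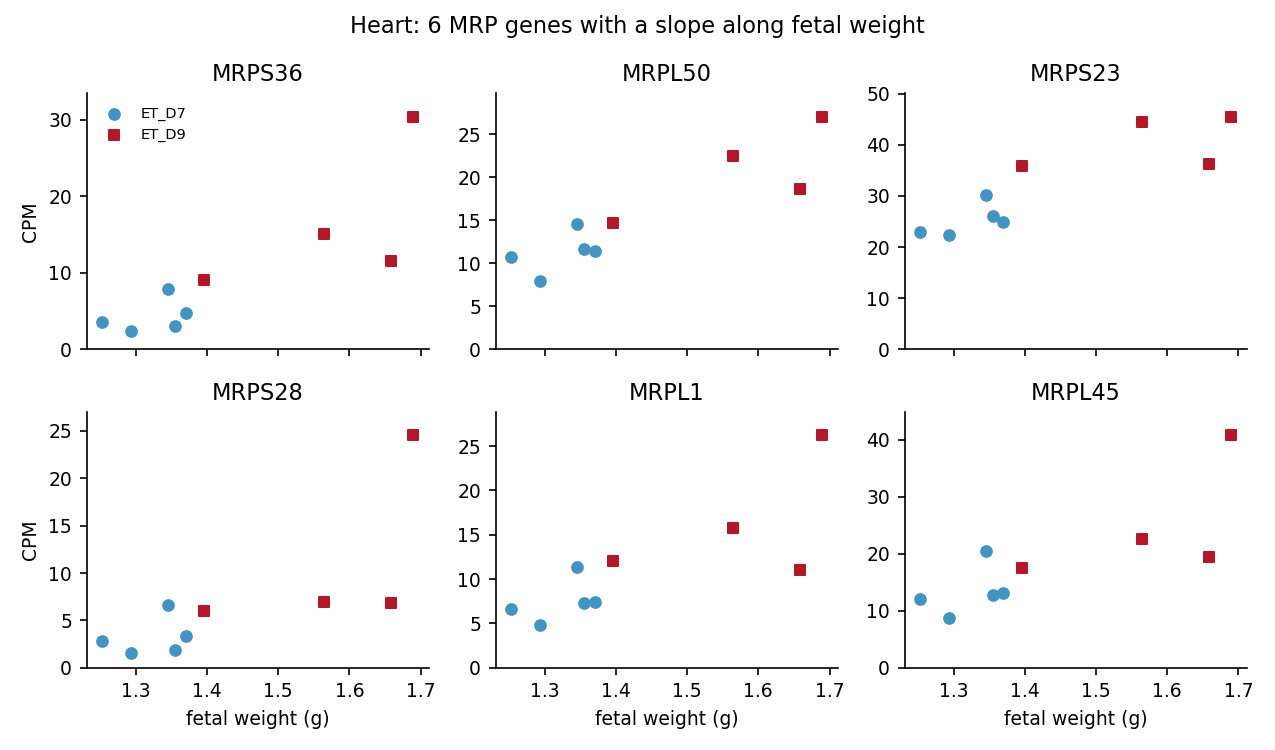
CPM in the heart (TMM within the heart, vertical axes from 0) against fetal weight in g for the 6 MRP genes with a called slope, with 1 point per fetus, circles for ET_D7 and squares for ET_D9. The heaviest fetus holds the highest point in every panel, and in MRPS28 it stands at 24.5 CPM against 6.99 CPM for the next.

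The heart calls depended on single fetuses. Without fetus 1, 2, 4, 5, 8 or 10 in turn, or without fetuses 9 and 10, 0 MRP genes and 0 of all genes passed. Without fetus 3 the count was 23 MRP genes, of which 14 fell, beside 3947 of 15907 genes. With transfer group as a covariate, or with the log2 mitochondrial ratio as one, the count was also 0, for MRP genes and for all genes. Weight and the mitochondrially encoded share were linked in the heart, with r = -0.76 between them (rho -0.72, n = 9; -0.64 without the 2 heaviest).

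In the other tissues no slope passed, with all libraries or with near-identical ones counted once. In the gonads the 4 with the smallest p were MRPL20, MRPL33, MRPL10 and MRPS33, with slopes of 0.08 to 0.11 per 0.1 g and adjusted p-values of 0.849 to 0.857. In the liver they were MRPS5 (0.15, SE 0.05, adjusted p = 0.134), MRPL28 (0.32, SE 0.10, adjusted p = 0.137, close to the heart slope of MRPL50), MRPS31 (-0.20, SE 0.07, adjusted p = 0.171) and MRPS11 (0.16, SE 0.06, adjusted p = 0.215). MRPL28 in the liver, from fetus 1 upwards and without fetuses 6 and 7, was at 26.03, 25.2, 41.04, 77.4, 26.7, 71.0, 73.7 and 79.8 CPM. All 3 ET_D9 livers and fetus 4 were high and the other 4 were low.

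In the maternal blood, 62 of 76 slopes were above 0, where 50.9% of all genes were, with a median of 0.03 against 0.00. Slopes were also above 0 for 70 of 71 cytosolic ribosomal protein genes and 28 of 36 nuclear complex I subunits. The 4 MRP genes with the smallest p, MRPS33, MRPL35, MRPS26 and MRPL34, had slopes of 0.11 to 0.12 and adjusted p-values of 0.440 to 0.450. MRPS33 was at 31.8 to 60.7 CPM (median 40.01), with the highest value in the heifer carrying fetus 10. Without the heifers of fetuses 9 and 10 the number of MRP slopes above 0 was 35, and without those of fetuses 2 and 5, whose libraries held muscle transcripts, it was 56.

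The last comparison set the MRP genes beside the output of the mitochondrial genome. Counts of the 37 mitochondrially encoded genes made up 17.1% to 57.3% of a heart library, 16.3% to 36.8% of a liver library, 3.31% to 7.23% of a gonad library and 2.14% to 3.29% of a blood library. Slopes are on the log2 scale per doubling of the ratio of mitochondrial to nuclear counts. Because a larger mitochondrial share leaves fewer counts for all nuclear genes, each direction below depends on the TMM scaling and is given relative to the other genes.

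In the heart, 27 MRP genes rose with the share and 14 fell (19.8% and 21.1% of all genes), with a median slope of 0.09 against 0.01 over all genes, whereas without a TMM factor 1 rose and 57 fell, at medians of -0.32 and -0.40. With fetal weight as a covariate 21 rose and 9 fell. Without fetus 10, 13 rose and 9 fell.

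MRPL45 showed the smallest p. It ranged from 8.78 CPM in fetus 2, the heart with the highest share, to 40.8 CPM in fetus 10, the heart with the lowest (median 17.5). Its slope was -0.75 (SE 0.08, adjusted p = 9.79e-05). MRPL49, a large-subunit protein, followed the same order from 10.1 to 36.8 CPM (median 18.7), with a slope of -0.62 (SE 0.06, adjusted p = 0.000106).

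MRPS26 and MRPL52 ran the other way under TMM. MRPS26 ranged from 34.6 CPM in fetus 10 to 83.1 CPM in fetus 2 (median 62.4), with a slope of 0.50 (SE 0.05, adjusted p = 0.000117) that was 0.09 without a TMM factor (adjusted p = 0.200). MRPL52 ranged from 53.9 to 128 CPM between the same fetuses (median 93.8), with a slope of 0.44 (SE 0.05, adjusted p = 0.000154) that was 0.03 without a TMM factor (adjusted p = 0.693). The 14 that fell held all 6 genes that rose with weight in the heart, and the same 9 libraries gave both results.

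In the gonads, 32 MRP genes rose with the share and 9 fell (19.0% and 14.0% of all genes), with a median slope of 0.32 against -0.09. The count rested on fetus 7, whose gonad library had a share of 7.23% against 3.31% to 4.65% in the other 8. Without it 0 MRP genes and 0 of all genes passed with edgeR's quasi-likelihood test, with 21 MRP genes at an unadjusted p under 0.05. Without fetus 9 the count was 27. With fetuses 6 and 8 counted once 26 rose and 9 fell.

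MRPL36, one of the smallest large-subunit proteins, was at 45.4 CPM in fetus 7 and at 17.4 to 28.5 CPM in the other gonads (slope 1.16, SE 0.11, adjusted p = 0.000973). MRPL41 was at 38.7 CPM there against 14.97 to 21.6, MRPS26 at 84.5 CPM against 37.1 to 51.8 and MRPS2 at 41.02 CPM against 16.0 to 28.3. In all 4 genes fetus 7 stood above every other gonad library. Among the 9 that fell, MRPL39 was lowest in fetus 7, at 41.5 CPM against 56.3 to 78.8 CPM.

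**Figure D4:**
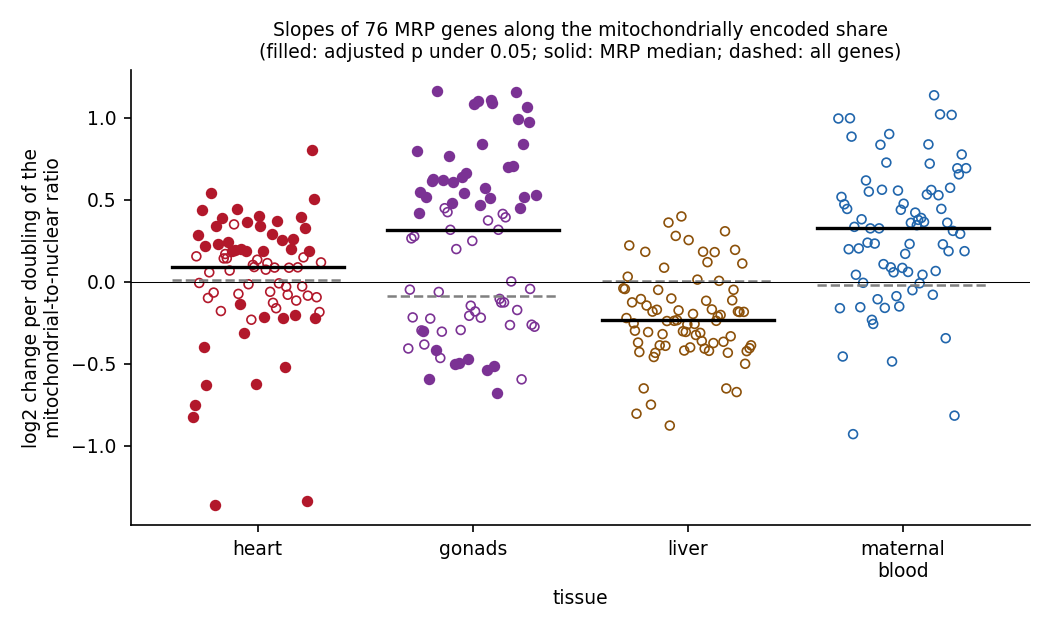
Slope of each counted MRP gene on the log2 scale per doubling of the mitochondrial to nuclear count ratio, by tissue, with TMM scaling within the tissue, with filled points for slopes past an adjusted p of 0.05, a solid line for the MRP median and a dashed line for the median of all genes. Heart and gonads hold filled points on both sides of 0, which in the heart becomes 1 above and 57 below without a TMM factor, and liver and blood hold none.

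In the liver 0 MRP genes passed (0.0662% of all genes), and DESeq2 also called 0. At an unadjusted p under 0.05 there were 16 (11.9% of all genes), all with a negative slope (5.40%). Slopes were above 0 for 16 of 76, where 50.7% of all genes were, with a median of -0.24 against 0.01. They were above 0 for 6 of 71 cytosolic ribosomal protein genes and 6 of 37 nuclear complex I subunits, so that the tilt was not particular to MRP genes. With fetuses 1 and 2 counted once 0 MRP genes passed and 11 were under an unadjusted p of 0.05, and without a TMM factor 6 fell. The 4 with the smallest p were MRPL42 (-0.65, SE 0.19, adjusted p = 0.259), MRPL50 (-0.80, SE 0.24, adjusted p = 0.259), MRPS10 (-0.42, SE 0.13, adjusted p = 0.260) and MRPS14 (-0.40, SE 0.14, adjusted p = 0.330). MRPL42 ranged from 15.5 to 40.4 CPM (median 25.3), highest in fetus 10, the liver with the lowest share.

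In the maternal blood 0 passed as well (0.00% of all genes), with 5 at an unadjusted p under 0.05 (8.33% of all genes) and 0 with DESeq2. Slopes were above 0 for 59 of 76, where 49.0% of all genes were, and for 56 without the libraries of fetuses 2 and 5. With all libraries they were above 0 for 70 of 71 cytosolic ribosomal protein genes and 29 of 36 nuclear complex I subunits. Among the MRP genes MRPL53 had the smallest p, at 21.5 to 30.0 CPM (median 27.0; slope 0.78, SE 0.26, adjusted p = 0.469). Its lowest and highest libraries were those of fetuses 2 and 5. MRPL1 had a slope of 0.99 (SE 0.45, adjusted p = 0.595) with these libraries and -0.23 without them.

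The summed share of MRP transcripts gave the same picture by tissue, as a description of libraries that share a denominator. In the heart, Pearson's r between the sum as a percent of nuclear counts and the mitochondrial share was 0.80 (rho 0.88, n = 9; 0.63 without fetuses 2 and 10), and it was -0.98 with the sum as a percent of all counts. In the gonads r was 0.81 (rho 0.38, n = 8; 0.75 without fetuses 5 and 7), and 0.27 without fetus 7 alone. In the liver r was -0.65 (rho -0.57, n = 7; -0.56 without fetuses 4 and 10), and in the blood 0.31 (rho 0.32, n = 10; 0.52 without fetuses 2 and 5). With fetal weight, r was -0.55 in the heart (-0.10 without fetuses 9 and 10), -0.06 in the gonads (0.27 without them), 0.43 in the liver (-0.79 without them) and 0.29 in the blood (-0.28 without them).

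**Figure D5:**
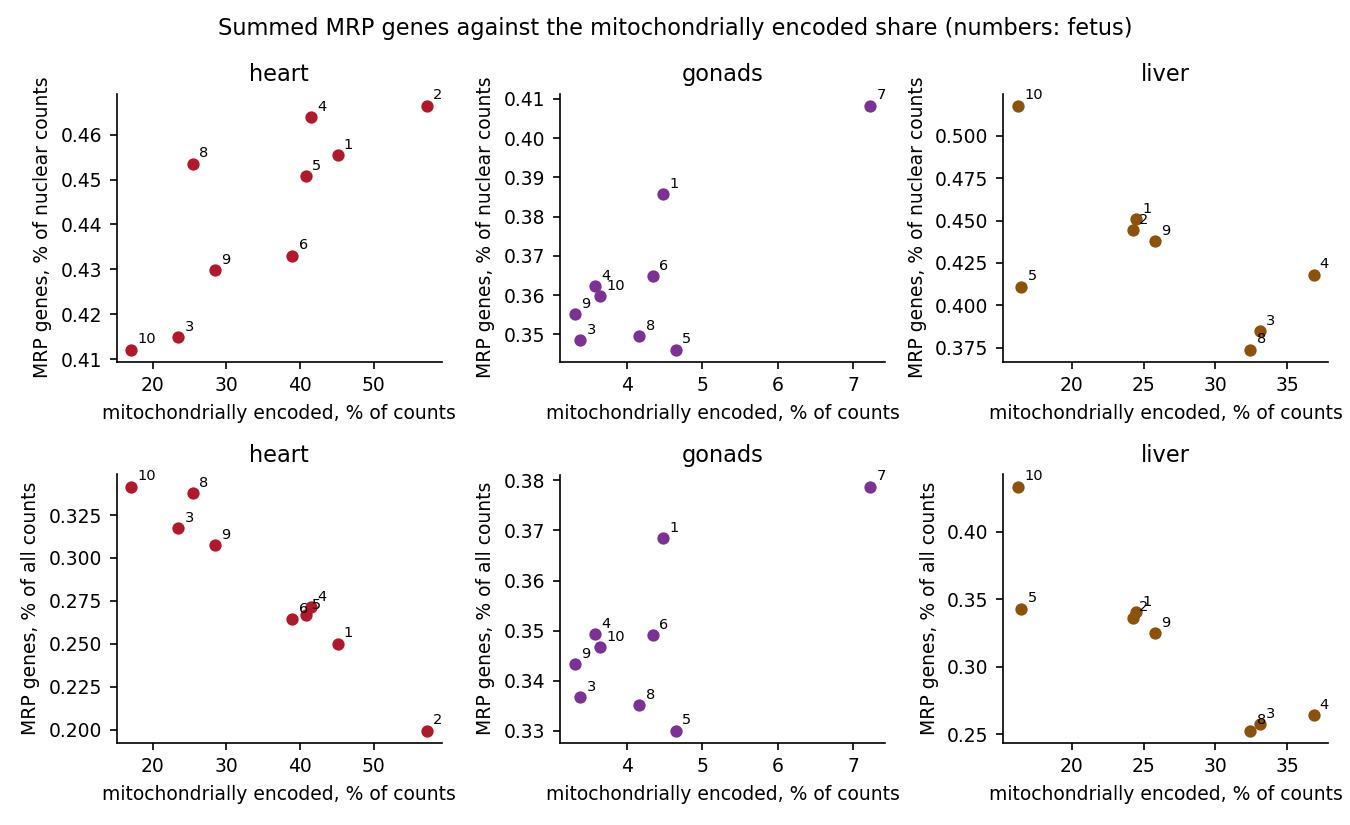
Summed MRP counts as a percent of nuclear counts against the mitochondrially encoded percent of all counts, for the 3 organs, with the same sum as a percent of all counts in the lower row and 1 point per library labelled by fetus. In the upper row the heart points run upwards (r = 0.80) and in the lower row downwards (r = -0.98), the liver points run downwards in both, and gonad fetus 7, at 7.23%, lies apart.

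The difference between organs in these slopes was tested with an interaction term in 1 fit of the 26 organ libraries. The fit held no term for fetus, although organs of the same fetus are paired. A replicate block for fetus was not run for this test. Along the mitochondrial share, 22 of 76 MRP genes had a higher slope in heart than in liver and 0 a lower one, where 6.09% of all genes differed. Between gonads and liver 19 were higher and 0 lower (6.25% of all genes), and between heart and gonads 2 were higher and 4 lower (2.46%). Counting near-identical libraries once gave 18 and 0, 16 and 0, and 2 and 4. The gonad slopes rest on fetus 7, as above.

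MRPS26 had a slope of 0.50 in the heart and -0.22 in the liver (difference 0.72, SE 0.10, adjusted p = 0.000123) and of 0.96 in the gonads. MRPL36 had 0.40 in heart, 1.14 in gonads and -0.37 in liver. MRPL39 had 0.25 in the heart and -0.69 in the gonads (difference 0.95, SE 0.20, adjusted p = 0.0149), and MRPS34, a small-subunit protein, had -0.17 and 1.09 (difference -1.25, SE 0.21, adjusted p = 0.00337).

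Along fetal weight, heart and gonads differed for 0 MRP genes (0.0164% of all genes), with 6 at an unadjusted p under 0.05, and DESeq2 was not run for this term. Heart and liver differed for 3 (8.79% of all genes), which were MRPL1 (0.39 and -0.10, adjusted p = 0.0173), MRPL10 (0.08 and -0.23, adjusted p = 0.0396) and MRPL28 (-0.12 and 0.35, adjusted p = 0.0436). Gonads and liver differed for 2 (5.48%), MRPS5 (-0.08 and 0.17, adjusted p = 0.0304) and MRPL10 (0.10 and -0.23, adjusted p = 0.0495). With near-identical libraries counted once MRPL1 alone differed between heart and liver (adjusted p = 0.0300) and MRPS5 alone between gonads and liver (adjusted p = 0.0337).

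Across organs, 18 MRP genes rose with the share in both heart and gonads, which is 66.7% of the 27 in the heart and 56.3% of the 32 in the gonads. Of all genes tested in both organs 8.28% rose in both, which is 41.1% of those that rose in heart and 39.5% of those that rose in gonads. The difference was not tested. They included MRPL23, MRPL40, MRPL41, MRPL55 and MRPS26. MRPL39 and MRPS18C rose in the heart and fell in the gonads, MRPS23 and MRPS27 did the reverse, and MRPL32 and MRPL44 fell in both. Of the 21 genes higher in the liver, 15 rose with the share in the heart (71.4%, against 27.1% of 3619 liver-high genes) and 16 in the gonads (76.2%, against 27.6% of 4105). Of the 21 higher in the heart, 8 rose in the heart (38.1%, against 33.4%) and 5 in the gonads (23.8%, against 28.4%). Of the 38 lowest in the gonads, 21 rose in the heart (55.3%, against 41.4%) and 25 in the gonads (65.8%, against 38.8%). The organ calls and the slopes share libraries, so these counts were not tested. They also depend on the settings of the share fits. Without a TMM factor 1 MRP gene rose in the heart, and in the gonads 0 passed without fetus 7.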

How the data were processed

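RNA-seq counts per gene were measured in 36 libraries, as deposited by the authors, who trimmed reads with Trimmomatic, checked them with FastQC 0.11.9, aligned them with STAR 2.7.0b to ARS-UCD1.3 and counted reads per gene with featureCounts of Subread 2.0.3. Strand and multimapping options are not given in the sources used here. Symbols were matched by gene identifier to a RefSeq table of another build (31630 of 35092 rows), used only for names and for which genes overlap; no coordinates are printed.

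Counts were tested with edgeR 4.0.16 (quasi-likelihood, TMM, R 4.3.3), with limma 3.58.1 as its dependency and DESeq2 1.42.0 as an alternative. Within a tissue, genes needed 10 counts in 4 libraries, and weight entered linearly per 0.1 g or as a spline with 3 degrees of freedom. Named genes were the 5 per organ call with the largest smaller fold change, the 4 per tissue with the smallest p of each term, the MRPS18 copies and up to 3 per pathway list and organ call; others are said to be chosen after their values were seen or are those that passed a test. Same-numbered libraries come from the same fetus, and a replicate block for fetus was an alternative for the organ calls only. Other alternatives were size factors, filters, covariates and leaving out each fetus. The fits were tested on simulated data. Genes and lists were chosen with earlier results of these data known. Near-identical libraries (gonads of fetuses 6 and 8, livers of fetuses 1 and 2; chi-square scaled by the median count ratio) were counted once in means and correlations and, as an alternative chosen after seeing the data, in the fits. SDs and p-values reflect the spread between libraries. Levels per transcript length, promoter motifs and sequences were not analysed here.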

Additional observations from a re-analysis of the deposited data

Results flagged for a closer look

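With near-identical libraries counted once, of 57 checks for a library far from the others of its tissue, 14 were positive. Most checks were on genes named for their organ differences or slopes in these same libraries. A chance rate of 1 in 20 therefore does not apply, and the count is a description. In the gonads, fetus 7 was highest for the mitochondrially encoded share at 7.23% (others 3.31% to 4.65%). It was also highest for MRPL36 at 45.4 CPM, MRPL41 at 38.7 CPM, MRPS23 at 121 CPM, MRPS26 at 84.5 CPM, MRPS27 at 81.1 CPM and MRPS9 at 94.0 CPM. In the heart, fetus 10 was highest for MRPL45 at 40.8 CPM, MRPS28 at 24.5 CPM and MRPS36 at 30.4 CPM. In the liver, fetus 3 was highest for the ratio of large-subunit to small-subunit counts at 1.80 (others 1.58 to 1.66) and for MRPL23 at 335 CPM, and fetus 4 for MRPS30 at 90.7 CPM. In the blood, the heifer with fetus 10 was highest for MRPS33 at 60.7 CPM. The part of these libraries in other results was tested only by leaving each out.

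Slopes differed between organs by the interaction test, which held no term for fetus. Along the mitochondrial share this held for 6 MRP genes between heart and gonads, 22 between heart and liver and 19 between gonads and liver. Along fetal weight it held for 3 between heart and liver and 2 between gonads and liver, of which 1 and 1 held with near-identical libraries counted once.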

How the results depend on the processing

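With fetus as a replicate block, the heart led in 20 MRP genes, the gonads led in 2 and the liver led in 21, and among the counts of organ calls only the gonad count moved by over 1.5 times. With a log2 fold change above 1 required, the counts were 2, 0 and 4. Leaving out each fetus in turn gave 16 to 23, 3 to 5 and 18 to 23. The heart weight count was 0 with transfer group or the log2 mitochondrial ratio as a covariate, and with transfer group in place of weight. It was also 0 without fetuses 9 and 10, and 13 with DESeq2, beside 3066 of 16250 genes. Leaving out each fetus gave 0 to 23, beside 0 to 3947 of all genes. The liver weight count was 1 with the mitochondrial ratio as a covariate, 2 with DESeq2 and 0 to 2 leaving out each fetus, with 2 without fetus 4. Along the share, leaving out each fetus gave 22 to 42 in the heart and 0 to 48 in the gonads, and no TMM factor gave 6 in the liver. With near-identical libraries counted once, 1 MRP gene passed on the gonad spline of weight, and no organ, linear weight or share count moved by over 1.5 times. Mean sums were 0.284% of all counts and 0.369% of the TMM-scaled total in the heart, 0.349% and 0.217% in the gonads, and 0.316% of all counts in the liver, so that the order of the organs depends on the denominator. The count lowest in the liver was 8 with DESeq2 size factors against 14. For r with the share, percent of all counts gave -0.98 in the heart and -0.89 in the liver, the median MRP gene gave 0.63 in the heart, and the blood without fetuses 2 and 5 gave 0.52. For r with weight, the heart gave 0.76 with percent of all counts and -0.22 with the median gene, the gonads 0.65 with the median gene, 0.0068 with the TMM-scaled total and -0.32 to 0.19 leaving out each fetus, and the liver -0.13 to 0.67. Slopes turned to -0.0213 for MRPL10 and -0.0107 for MRPS33 in the gonads along weight with transfer group as a covariate, and to -0.23 for MRPL1 in the blood without fetuses 2 and 5. The cause was not tested. Levels per transcript length and promoter motifs were not run.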
